A study of Caenorhabditis elegans with 2 samples.

Results

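The regions described here are candidates of a chromatin immunoprecipitation sequencing (ChIP-seq) experiment that lay between genes, in sequence with few or no exact copies, on the 5 autosomes of the nematode Caenorhabditis elegans. A candidate qualified when its summit, the position of highest signal, met 4 conditions. It lay outside every protein-coding and RNA gene. It lay outside promoters, taken from 500 bp before to 100 bp past the transcription start site (TSS) of a protein-coding transcript. No gene of a transfer RNA (tRNA), small nucleolar RNA (snoRNA), small nuclear RNA (snRNA) or spliced leader RNA lay within 500 bp of it. No stretch of 24 bases in the 130 bp to either side of it occurred 5 or more times in the genome, counting both strands. Of 9477 candidates, 1135 (11.98%) qualified. These unique intergenic candidates are defined by position and sequence, with no signal or IDR in the rule itself, and summits in pseudogenes were allowed.

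The worms, of strain RW12270, carried the allele st12270 on chromosome II, in which CRISPR editing had put TY1, EGFP and 3xFLAG tags onto Y53F4B.3 at its own locus, so that the gene's own promoter drives the tagged protein. An anti-GFP antibody was used on sonicated chromatin of whole young adults aged 64 h, which had been synchronised as starved L1 larvae after bleaching. There was 1 group of 2 biological replicates, with no second genotype or treatment, and untagged worms were not analysed here. Each replicate had a ranked list of candidates and a thresholded list made with the authors' limit on the irreproducible discovery rate (IDR). A larger and a conservative pair of lists drew on both replicates. Some candidates with a low IDR were absent from the thresholded lists, so presence there is not the same as a low IDR. In the larger pair 465 of the 9477 candidates were in the thresholded list, here called listed (4.91%). The signal of a peak is the score of the authors' peak caller, which ranks peaks within 1 list. It has no known scale shared between each replicate's lists and those drawn from both. Every listed member described below had the same signal in the larger and the conservative ranked list. The IDR is low for peaks whose ranks are high in both compared sets, with exceptions among overlapping entries that are described with the values. Peak lists hold no counts, so the depth of the libraries is unknown, and the 2 replicates limit every comparison.

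Y53F4B.3 is annotated as pole-4, a name it shares with a histone-fold subunit of DNA polymerase epsilon in other species. In yeast and mammals this enzyme copies the leading strand at replication forks. The worm genome is compact, and most of its known regulatory sequence lies close to start sites, so intergenic sequence away from promoters holds distal elements, gene ends, pseudogenes and the remains of mobile elements. On worm autosomes the arms recombine more and carry more repeats than the gene-rich centres. Sequence that occurs only once lets a short read be placed at 1 locus, whereas a read from a repeat can come from any copy. Whole worms were used, so no region can be assigned to a tissue. The reads themselves were not examined.

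Of the 1135 unique intergenic candidates, 19 were listed. The sequences around 8 of their summits, 75 bp to each side, are shown as read from the ce11 reference, 5′ to 3′. The first 6 have the highest signal among the listed members on the 4 autosomes whose sequence is printed, and the last 2 are shown because they resemble that of vps-37. Each is named after the gene of the nearest protein-coding TSS, which is a label of position and not a target. Capitals mark the words AGTGGNT and GTTCNANNC on the printed strand, which resemble parts of the A box and B box, the internal promoter elements of tRNA genes. These words were chosen after the sequences had been seen.
K12H4.5, chrIII:8043896-8044046, plus strand: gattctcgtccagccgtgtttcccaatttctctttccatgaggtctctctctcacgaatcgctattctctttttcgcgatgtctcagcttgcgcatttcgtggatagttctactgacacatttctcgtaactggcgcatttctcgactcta
egrh-2, chrIV:991287-991437, plus strand: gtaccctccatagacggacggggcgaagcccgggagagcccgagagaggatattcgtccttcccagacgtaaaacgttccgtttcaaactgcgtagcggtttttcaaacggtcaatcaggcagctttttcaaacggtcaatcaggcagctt
vps-37, chrV:5592042-5592192, plus strand: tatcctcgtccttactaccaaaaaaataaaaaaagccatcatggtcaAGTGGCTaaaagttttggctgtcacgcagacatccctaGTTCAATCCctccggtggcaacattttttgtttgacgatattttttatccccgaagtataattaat
mrpl-40, chrIII:89298-89448, minus strand: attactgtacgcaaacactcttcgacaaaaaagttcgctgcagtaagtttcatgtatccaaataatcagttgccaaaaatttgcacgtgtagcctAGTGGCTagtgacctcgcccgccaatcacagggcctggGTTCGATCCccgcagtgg
jmjd-2, chrII:14244973-14245123, plus strand: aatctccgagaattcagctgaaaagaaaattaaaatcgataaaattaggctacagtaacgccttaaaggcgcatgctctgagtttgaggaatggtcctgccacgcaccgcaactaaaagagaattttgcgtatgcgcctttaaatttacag
plg-1, chrIII:8860829-8860979, plus strand: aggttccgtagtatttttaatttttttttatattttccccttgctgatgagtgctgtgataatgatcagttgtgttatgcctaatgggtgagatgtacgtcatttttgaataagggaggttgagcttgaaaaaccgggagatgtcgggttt
F09E5.7, chrII:5353784-5353934, minus strand: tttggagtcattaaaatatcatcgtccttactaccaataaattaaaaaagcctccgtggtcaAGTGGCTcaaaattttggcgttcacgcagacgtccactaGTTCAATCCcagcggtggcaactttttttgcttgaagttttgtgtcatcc
C14C11.7, chrV:5667455-5667605, minus strand: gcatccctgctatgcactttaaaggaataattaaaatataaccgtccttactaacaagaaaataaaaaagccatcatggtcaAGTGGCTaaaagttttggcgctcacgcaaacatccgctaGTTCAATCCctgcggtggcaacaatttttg

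The members of this set were listed less often than the ranked list as a whole. The 19 listed members were 1.67% of 1135 (95% interval 1.01 to 2.60%), below the 4.91% of all candidates, and they made up 4.09% of the 465 listed peaks. All intervals on shares are exact binomial (Clopper-Pearson) intervals, which treat regions as independent. Intergenic candidates that met every other condition but held a 24-base stretch found 5 or more times were listed in 79 of 695 cases (11.4%, 9.10 to 13.96%). Promoter candidates in unique sequence, also away from short RNA genes, were listed in 96 of 1577 cases (6.09%, 4.96 to 7.38%). The interval of the unique intergenic candidates lay below both of these. It overlapped that of gene body candidates in unique sequence, of which 36 of 3463 were listed (1.04%, 0.729 to 1.44%). No test was made between these classes, since regions of 1 group are not replicates of a condition.

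Step by step, the conditions of the rule moved the listed share first up and then down. It was 4.79% over the 8271 autosomal candidates and 8.41% over the 3092 outside protein-coding genes. Leaving out RNA genes and promoters brought it to 6.27% of 1915, and the distance to short RNA genes to 5.36% of 1830. The condition on repeated sequence then removed 695 candidates, 79 of them listed, and left the 1135. No candidate of the unique intergenic set passed an IDR of 0.01 without being listed, whereas 103 of the 695 repeated ones did. These 103 count as not listed in the shares given for repeated sequence.

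Signal was also a little lower. The median signal of the unique intergenic candidates was 40.8 (quartiles 34.0 and 47.7), against 42.6 for all candidates, 43.6 for promoters in unique sequence, 41.0 for gene bodies and 49.4 for repeated intergenic sequence. Their median IDR was 0.833, against 0.666 for all candidates. An IDR of 0.05 or less was reached by 40 of them (3.52%), against 9.61% of all candidates and 30.4% of repeated intergenic ones, and 21 of these 40 lay between 0.01 and 0.05. Among the 500 candidates of highest signal, 11 belonged to the set and 168 to repeated intergenic sequence. The 19 listed members had a median signal of 88.3, near the 84.3 of listed gene body peaks and below the 97.4 of listed promoter peaks and the 129 of listed repeated intergenic peaks. Almost every candidate of the set (1134 of 1135) was 260 bp wide, and the exception, 108 bp wide, was the one with the highest signal.

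**Figure D1:**
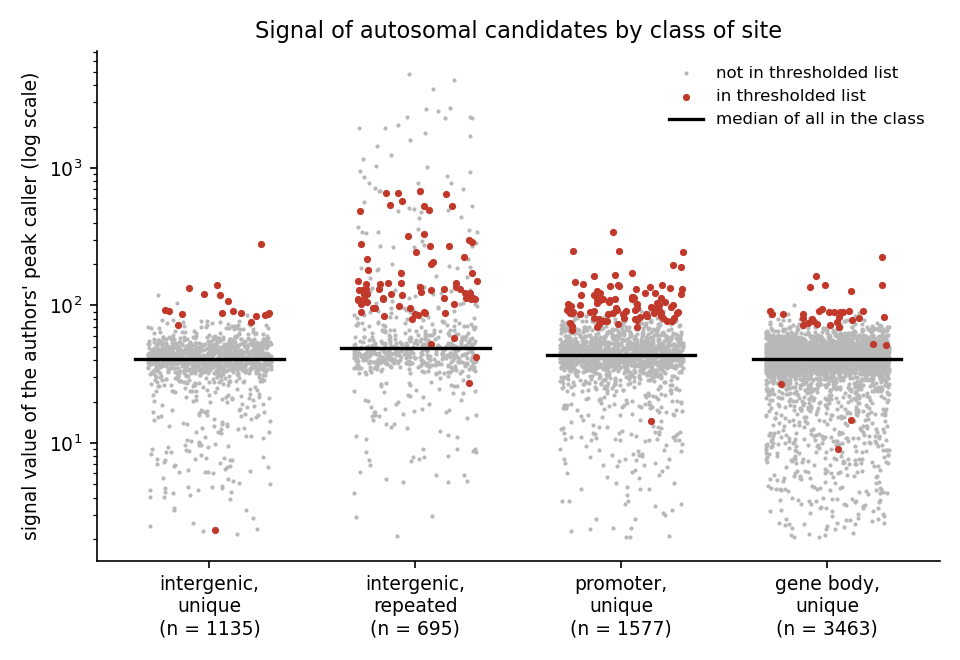
Signal of each autosomal candidate in the larger ranked list (log scale) for 4 classes of site; small grey points are not listed, larger red points are listed, and the bar is the median of the class. Listed unique intergenic candidates sit between 71.7 and 280, except for 1 entry at 2.33, while repeated intergenic ones reach far higher.

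Within the set, the listed share was higher in the classes with more exact copies. Of the 884 candidates whose window held no 24-base stretch found more than once, 11 were listed (1.24%, 0.623 to 2.22%). Where the most frequent stretch was found 2 times, 4 of 166 were listed (2.41%, 0.660 to 6.05%), and at 3 or 4 times 4 of 85 (4.71%, 1.30 to 11.6%). These 3 intervals overlap, so the order is not resolved among the members. The last 4 include the entries by egrh-2 and lep-2, which overlap and are not separate sites. None of the 25 members at 4 times was listed. Beyond the limit of the rule the share was 7.29% (2.98 to 14.4%) at 5 to 9 copies, 5.95% (3.01 to 10.4%) at 10 to 49 and 14.7% (11.5 to 18.5%) at 50 or more. The median signal was 40.8, 40.2 and 42.7 in the 3 classes of members and 57.0 at 50 or more copies.

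**Figure D2:**
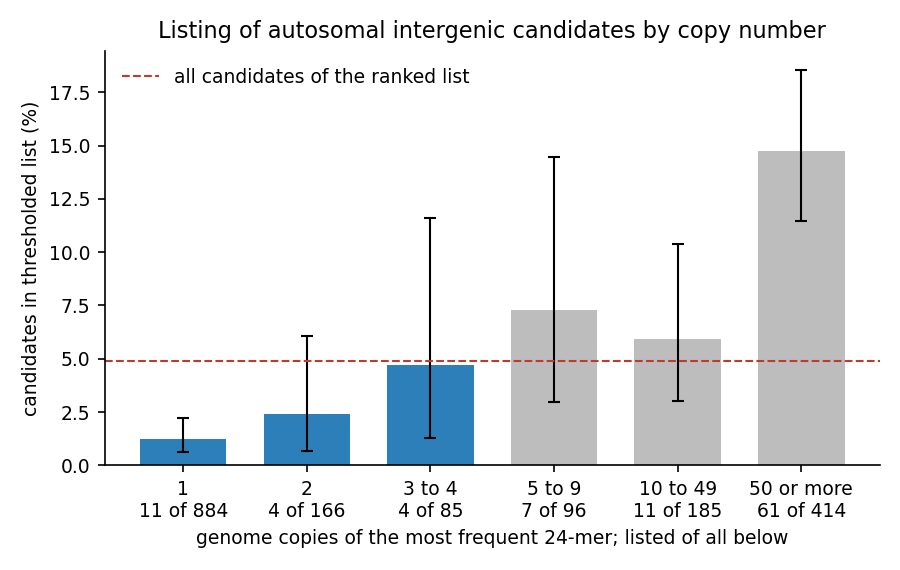
Percentage of autosomal intergenic candidates that were listed, by the genome count of the most frequent 24-base stretch within 130 bp of the summit; blue bars are members of the set, grey bars are outside its limit, error bars are exact 95% intervals and the dashed line is the 4.91% of all candidates. The bars go from 1.24% with no copy to 14.7% at 50 or more copies. Candidates that passed an IDR of 0.01 but were absent from the thresholded list count as not listed.

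The listed member of highest signal lay 516 bp upstream of K12H4.5, at chrIII:8043926-8044033, in a gap of 1611 bp between divergent genes. Its signal was 279.7 in the larger list (rank 95), 175 in replicate 1 (rank 32 of 18181) and 101 in replicate 2 (rank 159 of 27101). It was listed in all 4 thresholded lists, its IDR was at the floor of 1e-05 that the capped column can show, and blastn found no similar sequence elsewhere in the genome. Next came chrIV:991232-991491, 910 bp upstream of egrh-2, which encodes a zinc finger transcription factor of the EGR family. Its signal was 141 in the larger list, 82.7 in replicate 1 and 54.5 in replicate 2, and it was listed in both replicates (IDR 0.000198 and 0.000453). This site had the highest GC content of the listed members, 50.2%.

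Both of the other members listed in each replicate lay in chromosome arms. The region chrIII:89243-89502 lay past the 3′ end of mrpl-40, a gene of a mitochondrial ribosomal protein, 1814 bp from its TSS and between convergent genes. Its signal was 119.6 in the larger list, 65.4 in replicate 1 and 53.1 in replicate 2. The region chrII:14244918-14245177 lay 1445 bp upstream of jmjd-2, a histone demethylase gene, with a signal of 107 in the larger list, 61.1 in replicate 1 and 47.4 in replicate 2. All 4 of these members thus ranked within the first 1.7% of each replicate's candidates, from 0.176% for K12H4.5 to 1.68% for jmjd-2 in replicate 1 and from 0.587% to 1.44% for the same members in replicate 2.

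Another 6 members were listed in replicate 1 alone. The region chrI:4967543-4967802, 584 bp upstream of the aminopeptidase P gene app-1, had signals of 133 in the larger list, 78.9 in replicate 1 and 47.2 in replicate 2. Its IDR was 0.000924 within replicate 1 and 0.873 within replicate 2, although its rank by signal was 1.45% of the list there. The region chrV:5591987-5592246 lay 583 bp upstream of vps-37, which encodes a subunit of the ESCRT-I sorting complex, with signals of 120.2, 73.8 and 39.6 in the same order of lists. The listed member farthest from a start site, chrIII:8860774-8861033, lay 8643 bp past the TSS of plg-1, the gene of the mucin that forms the copulatory plug, in a gap of 17092 bp. Its signals were 91.2, 57.1 and 37.2. The most frequent 24-base stretch around its summit was found 2 times in the genome. Among its 14 blastn alignments elsewhere, the highest identity was 100%, over a length not given here.

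The other 3 listed in replicate 1 alone were weaker in the larger list. The region chrII:12739370-12739629, 1166 bp upstream of the phosphatidylinositol synthase gene pisy-1, had signals of 88.3 in the larger list, 59.4 in replicate 1 and 27.1 in replicate 2, and it was missing from the conservative list (IDR 0.0199). The regions chrV:5667400-5667659, 1444 bp upstream of C14C11.7, and chrIV:8375418-8375677, 884 bp past a start site of D2096.7, had signals of 86.8 and 85.2 in the larger list. In replicate 2 these 2 stood at 4.69% and 2.28% of the ranked list. The only member listed in replicate 2 alone was chrII:5353729-5353988, past the 3′ end of F09E5.7, with signals of 87.6 in the larger list, 45.3 in replicate 1 and 44.8 in replicate 2.

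For 8 listed members neither replicate alone gave a listed peak. The region chrI:6282432-6282691, 2411 bp upstream of chdp-1, had a signal of 93.3 in the larger list, 50.5 in replicate 1 and 42.1 in replicate 2. The region chrV:11541355-11541614, 2478 bp upstream of F38B7.2, had 90.8, 55.6 and 30.4. The region chrV:15454419-15454678 was the only listed member inside a pseudogene, and the nearest start site, 3028 bp away, was that of srw-33, of a chemoreceptor family. Its signal was 88.2 in the larger list, 44.4 in replicate 1 and 42.3 in replicate 2. Further members of this kind lay by mak-1 (chrII:8747180-8747439, 86.9), a MAPK-activated protein kinase gene, by spat-2 (chrIII:11036178-11036437, 84.0), by tir-1 (chrIII:3902702-3902961, 76.1), the gene of a TIR-domain adaptor, and by the cyclin L gene cyl-1 (chrV:11990807-11991066, 71.7). The last of these also missed the conservative list, at an IDR of 0.0223.

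The 19th entry stands apart from the others. The region chrIV:991431-991690, 722 bp upstream of the makorin gene lep-2, had a signal of 2.33 and rank 9457 of 9477, yet an IDR of 2.96e-05. It overlapped the egrh-2 region by 61 bp, its summit lay 199 bp from that one, and neither replicate held a candidate of its own there. That IDR is almost the 2.87e-05 of the egrh-2 region. Whether the IDR and the listing of this entry belong to it or to the stronger region was not tested. The 19 entries are therefore 18 separate sites. With only this entry removed, the listed share was 1.59% and the median listed signal 89.5, against 1.67% and 88.3 with it. Non-passing members held overlapping entries too, such as those by rho-1 with signals of 44.8 and 2.30 and an IDR of 0.704 each. They were not merged, so the 1135 members are entries and not all separate sites.

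**Figure D3:**
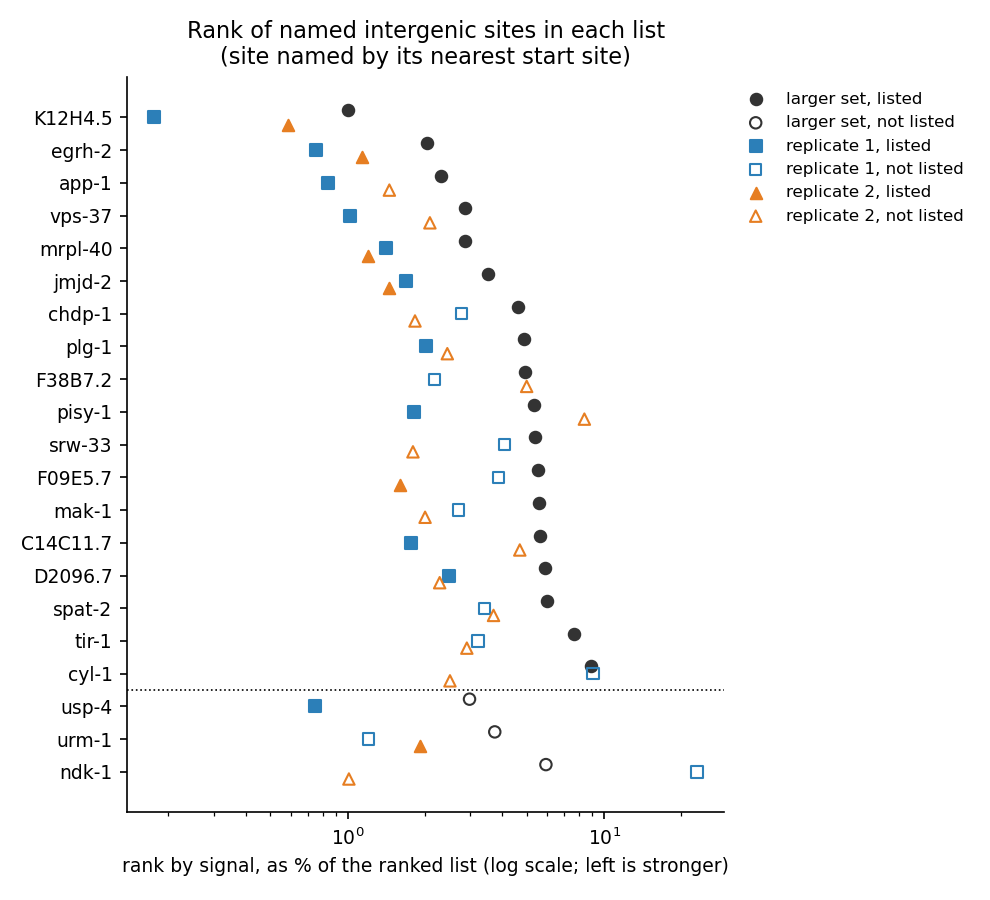
Rank by signal, as a percentage of the ranked list (log scale, left is stronger), of 18 listed sites and, below the dotted line, the 3 strongest non-passing members, in the larger list (circles), replicate 1 (squares) and replicate 2 (triangles); filled symbols are listed in that list. The 4 uppermost sites with both symbols filled are those by K12H4.5, egrh-2, mrpl-40 and jmjd-2, and the site by ndk-1 ranks at 23.0% in replicate 1 and 1.01% in replicate 2.

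Replicate 1 listed more of these regions than replicate 2. Both shares are over the same 19 regions, so their separate intervals do not compare the replicates. Of the 19 listed members, 10 were listed in replicate 1 (52.6%, 28.9 to 75.6%) and 5 in replicate 2 (26.3%, 9.15 to 51.2%). Listed in both were 4 (21.1%, 6.05 to 45.6%), and 17 were in the conservative set (89.5%). Over all candidates replicate 1 listed 287 of 18181 and replicate 2 listed 248 of 27101. The same shares over all 465 listed peaks of the larger set were not computed. A candidate of any rank was present in both replicates for 18 of the 19, against 433 of the 1116 non-passing members (38.8%), and 165 non-passing members (14.8%) had none in either replicate. The listed members stood at a median of 2.10% of the ranked list in replicate 1 (0.176 to 9.06%) and 2.05% in replicate 2 (0.587 to 8.38%). Non-passing members with a candidate stood at 31.5% and 26.8%. Since the larger lists draw on the same libraries, these ranks are no independent support for the listing. Across the 451 members with a candidate in both replicates, the signals of the replicates had a Spearman rho of 0.22, and of 0.13 over the 433 non-passing ones, as a description in which the points share 2 libraries.

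With the rule applied anew to the other lists, unique intergenic candidates were again below the share of each whole list. They were listed in 19 of 1481 cases in the conservative set (1.28%, 0.774 to 2.00%) where all candidates reached 3.49%, in 11 of 2407 in replicate 1 (0.457%, 0.228 to 0.816%) where all reached 1.58%, and in 5 of 3833 in replicate 2 (0.130%, 0.0424 to 0.304%) where all reached 0.915%. Repeated intergenic candidates were listed in 3.98% of cases in replicate 1, 4.79% in replicate 2 and 6.26% in the conservative set. The 4 pairs of lists come from the same 2 libraries.

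The 3 strongest members that were not listed overlapped the listed ones in signal. The region chrIV:6756512-6756771, 669 bp upstream of the ubiquitin-specific protease gene usp-4, had a signal of 118 and an IDR of 0.0132 in the larger list. It was listed in replicate 1, with a signal of 82.8, and in the conservative set, and replicate 2 held no candidate there. The region chrIII:10505948-10506207, past the 3′ end of urm-1, the gene of a ubiquitin-related modifier, had a signal of 104 and an IDR of 0.0582. It was listed in replicate 2 (41.3) and the conservative set but not in replicate 1, where its signal was 69.4. The region chrI:10552941-10553200, by the nucleoside diphosphate kinase gene ndk-1, had a signal of 84.6 and an IDR of 0.700, with 28.4 in replicate 1 and 58.2 in replicate 2, and was listed nowhere.

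Part of the listed members shared sequence features that the rule had not used. The word AGTGGNT followed on the same strand by GTTCNANNC, with starts 20 to 80 bp apart and both within 75 bp of the summit, was found in 4 of the 19 listed members, those by vps-37, mrpl-40, F09E5.7 and C14C11.7. It was found in 12 of the 1116 non-passing members (1.08%), in 82 of all 8271 autosomal candidates (0.991%), in 23 of the 396 listed autosomal peaks (5.81%) and in 0.0855% of 16382 grid positions that met the same rule, taken 1 per 1000 bp along the autosomes. Among 612 nuclear tRNA genes, those on the X chromosome included, 136 held it within the gene (22.2%). Of the 82 autosomal candidates with the pair, 39 lay near a short RNA gene, 16 of these listed, and 16 belonged to the unique intergenic set. No annotated tRNA gene lay closer than 10537 bp to a listed member, and none of the 209 pseudogenic tRNAs in the RefSeq annotation lay within 500 bp of one, against 6 near non-passing members. Because the pair was picked from these sequences, the counts are a description.

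Among the 12 non-passing members with the pair, signals ran from 11.97 by zig-5 to 71.6 by ckr-2 (chrIII:2031266-2031525, IDR 0.167). The one by ckr-2 had signals of 32.1 in replicate 1 and 38.0 in replicate 2. The next, by klf-1, had a signal of 62.9 and 85 blastn alignments to other positions in the genome. All 12 were thus below the 4 listed ones, which had 86.8 to 120.2. Listed members other than the entry by lep-2 had signals of 71.7 or more. The order thus follows largely from the split by listing and does not bear on the pair.

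The members by vps-37, F09E5.7 and C14C11.7 also resembled each other, as the printed sequences show. By blastn the first matched F09E5.7 at 86.7% identity over 128 bp and C14C11.7 at 82.5% over 217 bp, and F09E5.7 matched C14C11.7 at 85.2% over 128 bp. These 3 lay on chromosomes V, II and V and are not independent examples. The same family included 2 candidates inside genes, by eif-3.G (chrII:8441565-8441824, signal 80.2, IDR 0.216) and C32D5.12 (chrII:6358446-6358705, 36.7), neither of them listed. Sequence similar to the mrpl-40 member was found in 12 alignments elsewhere, none in a candidate.

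Similar sequence elsewhere was found for a larger share of the listed than of the non-passing members, without a clear separation. At an e-value limit of 1e-05, no similar place was found for 8 of 19 listed members (42.1%, 20.3 to 66.5%). The same held for 718 of 1116 non-passing ones (64.3%), a share inside that interval. The listed members by vps-37, F09E5.7 and C14C11.7 match each other, and the entries by egrh-2 and lep-2 overlap. Counted as blastn alignments, which were not merged where they fell on 1 place, listed members had at most 14, by plg-1 and srw-33. Of the non-passing members 99 (8.87%) had 20 or more, and the highest had 5545. The condition on exact 24-base stretches therefore left in some sequence with many alignments to other positions. The GC content of the window had a median of 38.7% (30.7 to 50.2%) for listed and 37.2% (19.2 to 62.1%) for non-passing members.

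Words of known factors were counted on both strands within 50 bp of the summit. The stricter B box word GTTCGANNC was found in 0 of the 19 listed members, in 1.88% of non-passing members, in 10.6% of all listed autosomal peaks and in 72.2% of the same tRNA genes. At the mrpl-40 site the printed capitals include GTTCGATCC, which lies outside that window of 50 bp. CGCG was found in 4 listed members (21.1%), in 13.7% of non-passing members, in 40.4% of all listed autosomal peaks and in 7.10% of grid positions. The CCAAT box word ATTGG occurred in 5 listed members (26.3%), in 20.3% of non-passing members and in 19.9% of grid positions. The E2F word TTCCCGC and the GATA word GATAAG occurred in none of the 19, against 1.34% and 3.23% of non-passing members. TATAAA occurred in 1, by plg-1, against 10.1%, and a tract of 8 T in 1, by pisy-1, against 10.3%. The remaining 3 words, the E box CACGTG, the worm promoter word CTGCGTC and the repeat GAGAGAGA, were in 1 listed member each and in 1.61 to 2.24% of non-passing ones. A match here is a run of letters and no binding site.

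Each autosome was cut into 3 segments of equal length, the middle one being the centre and the outer ones the arms. Arms held the members about as often as they held qualifying sequence. Of the 19 listed members 11 lay in arms (57.9%, 33.5 to 79.7%), and of the 1116 non-passing ones 723 (64.8%, 61.9 to 67.6%). Among the grid positions that met the same rule the share was 64.4%. Among listed members with no 24-base stretch found 2 or more times, 4 of 11 lay in arms (36.4%, 10.9 to 69.2%). There were 6.96 members per 100 such positions in arms and 6.88 in centres. Listing came to 11 of 734 members in arms (1.50%, 0.750 to 2.67%) and 8 of 401 in centres (2.00%, 0.865 to 3.89%), with overlapping intervals. Repeated intergenic candidates lay in arms in 70 of 79 listed cases (88.6%, 79.5 to 94.7%) and in 75.6% of those not listed. The interval of the listed members, which reaches 79.7%, just overlaps that of the listed repeated ones.

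The number of member entries for the qualifying sequence differed between chromosomes. Overlapping entries were not merged for this, and no interval was computed for it. Per 100 qualifying grid positions there were 9.58 members on chromosome III, 8.63 on I, 7.19 on II, 5.78 on V and 5.66 on IV. Listed were 5 of 218 on III (2.29%), 2 of 192 on I (1.04%), 4 of 221 on II (1.81%), 5 of 268 on V (1.87%) and 3 of 236 on IV (1.27%, the low-signal entry included), and all 5 intervals overlap.

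Listed members tended to lie nearer to a start site than non-passing ones, without a clear separation. The nearest protein-coding TSS was at a median of 1444 bp from listed summits (quartiles 803 and 2112.5, range 516 to 8643) and 1844.5 bp from non-passing ones (1043.5 and 3205.25, range 195 to 19412). Qualifying grid positions had a median of 2111 bp. Within 2000 bp of a TSS were 14 of 19 listed members (73.7%), 593 of 1116 non-passing ones (53.1%) and 47.7% of grid positions. The share listed was 3 of 61 at 500 to 600 bp (4.92%, 1.03 to 13.7%), 4 of 198 up to 1000 bp (2.02%), 7 of 337 up to 2000 bp (2.08%), 4 of 402 up to 5000 bp (0.995%) and 1 of 126 beyond (0.794%). All of these intervals overlap. The few members closer than 500 bp, 11 in all and none listed, lay past the 3′ end of short transcripts.

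**Figure D4:**
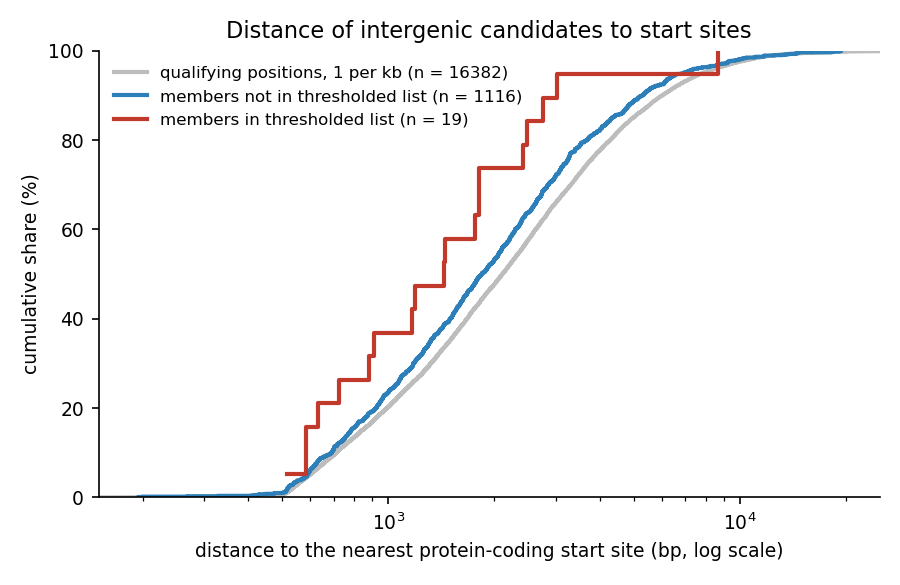
Cumulative share of summits by distance to the nearest protein-coding start site (bp, log scale) for the 19 listed members (red), the 1116 non-passing members (blue) and 16382 qualifying grid positions (grey). The red line lies left of the others over most of its range, with medians of 1444, 1844.5 and 2111 bp.

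The listed share was similar for all arrangements of the neighbouring genes, with overlapping intervals. The nearest TSS lay downstream of the summit, so that the summit was upstream of the gene, for 13 of 19 listed (68.4%), 755 of 1116 non-passing members (67.7%) and 70.8% of grid positions. Listed were 5 of 299 members between divergent genes (1.67%), 11 of 652 between genes in the same direction (1.69%) and 3 of 184 between convergent genes (1.63%). The median gap between the flanking genes was 6592 bp, 4769 bp and 1675 bp in these classes.

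At the limits of the rule the neighbours on the outer side were listed as often or more, with overlapping intervals at each limit. Members with a TSS 501 to 600 bp downstream of the summit were listed in 3 of 56 cases (5.36%, 1.12 to 14.9%), and promoter candidates outside genes at 401 to 500 bp in 9 of 85 (10.6%, 4.96 to 19.2%). None of 25 members with a most frequent stretch found 4 times was listed, nor any of 33 otherwise qualifying candidates at 5 times, which allows up to 13.7% and 10.6%. Around short RNA genes the shares were further apart, though their intervals just overlap. None of 16 members at 501 to 1000 bp from such a gene was listed, which allows up to 20.6%, against 14 of 42 candidates at 1 to 500 bp (33.3%, 19.6 to 49.5%). The copy limit alone left out 79 listed peaks, with a median signal of 129. A pair of them, near replication and centromere genes, is given here and was picked after the values had been seen. How many of the 79 lay near such genes is not given, so the pair does not describe them. The region chrI:4769552-4769811, 610 bp upstream of rpa-2, a subunit gene of replication protein A, had a signal of 179.7 and a most frequent stretch found 9 times. That by hcp-3, the centromeric histone gene, chrIII:9616950-9617209 and also 610 bp upstream, had 129 and 7 times.

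Of the members nearest to a gene on the lists looked up, the only listed one was that by srw-33, and the lists are too small to set this apart from the 1.67% of the whole set. The lists go by symbol or are short, so they do not hold every gene of a family, and they had been chosen with earlier results of these data known. Chemoreceptor genes were nearest to 40 of the 1135 members, 1 of them listed. Nuclear hormone receptor genes named nhr- were nearest to 17, with nhr-88 highest at a signal of 64.6, and neuropeptide and insulin genes named flp-, nlp- or ins- to 13, with flp-23 at 54.3. The 58 genes of a DNA replication and cell cycle list were nearest to 5, led by pcn-1, the gene of the replication clamp PCNA, with a signal of 62.3 and an IDR of 0.103. Genes named rpl- or rps-, of ribosomal proteins, were nearest to 6, led by rps-19 at 57.9. The 35 genes of a germline and eggshell list were nearest to 3, led by pgl-3, of a P granule protein, at 58.7. Collagen genes named col- were nearest to 5, homeobox genes named ceh- to 3 and histone genes named his- to 1, with a highest signal of 49.7 among them.

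Counts of listed members by other annotated features were also too small to be told apart from the 1.67% of the whole set. Genes of piRNAs, small RNAs that silence foreign sequence in the germline, lay within 500 bp of 58 members (5.11%), none of them listed. Genes of other non-coding RNAs lay within 500 bp of 115 members (10.1%), 1 of them listed, by cyl-1. Summits inside a pseudogene numbered 105 (9.25%), and only the one by srw-33 was listed. MicroRNA genes lay near 6 members and long intergenic RNA genes near 6, with 0 listed among either.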

How the data were processed

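Both replicates were processed by the authors to lists of peaks on assembly ce11, per the labels. Which aligner, peak caller and IDR tool were used is not given in the sources used here. Reads of a control were not analysed here. The deposited signal is a score of the authors' peak caller. A second deposited score is 125 times the negative log2 of the IDR, capped at 1000, and column 12 of the deposited ranked lists is the −log10 of the IDR over all peaks, with 5 as its highest value. The summit is deposited as an offset from the peak start. The 8 unnamed columns of per-sample values in each ranked list of 20 columns were not used.

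Coordinates are counted from 1. Genes came from Ensembl release 115, and sequences and pseudogenic tRNAs from RefSeq, both of the same build as ce11. Stretches of 24 bases were counted on both strands of the genome in a window of 261 bp around each summit. Similar places were found with BLAST+ 2.17.0 (blastn, e-value limit 1e-05, no low-complexity filter). Every alignment outside the member's own window was counted, and alignments at 1 place were not merged. The rest was computed in Python 3.11.15 with pandas 2.3.3, NumPy 2.4.6 and SciPy 1.17.1, with figures by matplotlib 3.10.9. Peaks of different lists counted as the same when they shared at least 50% of the shorter. The grid of positions, 1 per 1000 bp, describes the sequence available and is not a sample. The rule was checked on constructed positions. Shares have exact binomial 95% intervals, which cover counting error only, and no p-value was computed, since there is 1 group. The regions, gene lists and words were chosen with earlier results of these data known, and the word pair after the sequences had been seen.

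The rule for named regions took the 12 listed members of highest signal, the 3 of lowest signal and the 3 farthest from a start site, those within 2000 bp of another listed member, up to 3 listed members per gene list, and the 3 non-passing members of highest signal. The listed members by mak-1, C14C11.7, D2096.7 and spat-2, the sequences by F09E5.7 and C14C11.7, the rpa-2 and hcp-3 peaks, the non-passing regions with the word pair, C06B3.6 and the low-signal entries were named after their values were seen. Alternatives were the conservative lists, each replicate's own lists, other limits on copies, promoters, short RNA genes, arms, start sites and overlap, and the removal of pseudogenes. Removing the low-signal entry and requiring no similar place were added after seeing the data.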

Additional observations from a re-analysis of the deposited data

How the results depend on the processing

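The share of unique intergenic candidates that were listed, 1.67%, ran from 0.130% to 0.457% in the lists of single replicates, whose thresholds listed smaller shares of all candidates, and was 5.36% with no limit on repeated sequence. It was 1.28% in the conservative set, 1.24% with no 24-base stretch found 2 or more times, 1.43% with promoters of 1000 bp, 1.10% for members with no similar place and 1.70% at 1000 bp from short RNA genes. The share of listed members in arms, 57.9%, became 82.7% with no limit on repeats and 31.6% with the centre drawn as the middle 50% of a chromosome. It was 60% and 63.6% in single replicates, 46.2% with promoters of 1000 bp and 36.4% with no stretch found 2 or more times. For non-passing members the share in arms, 64.8%, became 59.9% with no stretch found 2 or more times, 68.6% with no limit and 46.5% with the middle 50%. Their median distance to a start site, 1844.5 bp, became 2058 bp with no limit on repeats, 2292 bp with promoters of 1000 bp and 1004 bp when start sites of all genes counted, and ran from 1959 to 2089.5 bp in single replicates. The median distance of listed members, 1444 bp, stayed between 912 and 1927.5 bp, and below that of non-passing members under every alternative run. The causes of these changes were not tested, beyond the sequence that each limit adds or removes. Counting as listed the peaks that pass an IDR of 0.01 changed no value, since no member was of that kind. The shares of repeated intergenic candidates were not recomputed in this way. The share listed in both replicates, 21.1%, was 9.09% to 32.7% under the alternatives. No paired analysis was possible because there is 1 group. The number of listed members, 19, limits the precision of each share over them.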

Other observations

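A further candidate was listed in a replicate but in neither set drawn from both. The region chrV:13907949-13908208, by C06B3.6, had a signal of 20.3 in replicate 2 at rank 8549 of 27101 with an IDR of 0.00119. In the larger list its signal was 8.21 and its IDR 0.0257, and replicate 1 held no candidate there.

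The low-signal entry by lep-2 was 1 of 6 listed peaks of the larger set with a signal under 20. The others lay by cpg-1 (14.7), klc-1 (14.3), R03D7.2 (9.09), chat-1 (6.29) and, on the X chromosome, F43C9.2 (2.86). Each overlapped a listed peak of higher signal, from 52.4 to 141, by 39 to 61 bp, and had nearly the IDR of that peak. By cpg-1, for example, the IDR was 0.00617 for the entry and 0.00622 for the peak it overlapped, and by F43C9.2 0.00366 and 0.00362.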
